A study of Homo sapiens with 6 samples.

Results

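The 10 genes described here encode the FOS, JUN and EGR transcription factors: FOS, FOSB, FOSL1 and FOSL2, JUN, JUNB and JUND, and EGR1, EGR2 and EGR3. They were chosen by gene symbol, as members of these families, from the 50868 genes of the deposited table. Each symbol matched 1 row. RNA came from HEK-293T, a transformed human embryonic kidney line given as wild type in the labels. Cells were kept for 12 h in medium with the solvent DMSO (3 libraries) or in medium with 10 µM nitidine chloride, a benzophenanthridine alkaloid (3 libraries). Nothing in the labels says that replicates came from separate cultures, so p-values measure the spread between these libraries, which may be technical.

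FOS and JUN family proteins pair through leucine zippers to form AP-1, a dimeric factor that binds a short palindromic DNA element. FOS proteins need a JUN partner, whereas JUN proteins can also pair with each other. EGR proteins bind GC-rich DNA through zinc fingers. Most of these genes are immediate early genes: growth factors and stress switch them on through MAP kinases, SRF and ETS factors without new protein synthesis, and their mRNAs and proteins are short-lived.

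Promoter sequences came from RefSeq on GRCh38.p14 and matched 8 of the 10 genes (FOSL1 and EGR3 did not match). The 250 bases before each start were searched on both strands for the CArG box, the element bound by SRF, for TGACNTCA, which covers the cAMP response element and the AP-1-like site of JUN, for TGANTCA, the AP-1 element, for GCGNGGGCG, an EGR element, for GGGCGG, the GC box, and for TATAAA. TGACNTCA and TGANTCA do not overlap as searched. The CArG box is in 1.2% of all 35116 promoters of this length, TGACNTCA in 6.9%, TGANTCA in 6.6%, GCGNGGGCG in 8.4%, GGGCGG in 42.6% and TATAAA in 10.7%. EGR1 and EGR2 are printed because they hold CArG boxes, and JUND and JUN because they hold TGACNTCA, while 30 bases of FOS and FOSL2 mRNA show AU-rich motifs. For JUN only the site is shown, since the annotation places these bases in its exon. In the promoters capitals mark the matches to all motifs but GGGCGG, and each sequence runs 5′ to 3′ on the strand of its gene.
EGR1, chr5:138465229-138465478, plus strand: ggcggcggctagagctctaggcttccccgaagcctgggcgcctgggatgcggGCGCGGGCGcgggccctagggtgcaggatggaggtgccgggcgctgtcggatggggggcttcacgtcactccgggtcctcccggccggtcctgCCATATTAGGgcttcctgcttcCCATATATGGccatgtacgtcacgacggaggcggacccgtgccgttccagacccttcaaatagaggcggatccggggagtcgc
EGR2, chr10:62816367-62816616, minus strand, the third of 3 RefSeq starts: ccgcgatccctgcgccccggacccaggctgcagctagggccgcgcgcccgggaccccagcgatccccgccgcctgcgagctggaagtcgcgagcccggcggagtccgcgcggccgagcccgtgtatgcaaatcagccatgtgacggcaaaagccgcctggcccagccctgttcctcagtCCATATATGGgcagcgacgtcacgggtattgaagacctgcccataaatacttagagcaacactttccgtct
JUND, chr19:18281623-18281872, minus strand: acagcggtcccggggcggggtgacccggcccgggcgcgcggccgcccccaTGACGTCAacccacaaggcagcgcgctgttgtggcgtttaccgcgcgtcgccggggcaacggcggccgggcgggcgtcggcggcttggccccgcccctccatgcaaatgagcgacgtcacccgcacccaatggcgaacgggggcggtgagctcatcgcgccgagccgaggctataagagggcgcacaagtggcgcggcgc
JUN site, chr1:58784096-58784125, minus strand: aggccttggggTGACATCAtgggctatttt
FOS, 3′ UTR bases 623 to 652: aaacgttttattgtgtttttaATTTATTTA
FOSL2, 3′ UTR bases 3894 to 3923: agaagaaattgacATTTAttttattATTTA
In EGR1, CArG boxes lie at -105 to -96 and -83 to -74 from the start, and an EGR element at -198 to -190. The CArG box of EGR2 lies at -71 to -62. The JUN site lies at -67 to -60 and the JUND site at -200 to -193. FOS, FOSB and JUNB hold TATAAA between -33 and -25, and none of the 8 promoters holds TGANTCA. A match describes the letters only, and so does the lack of one in this window.

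**Figure D1:**
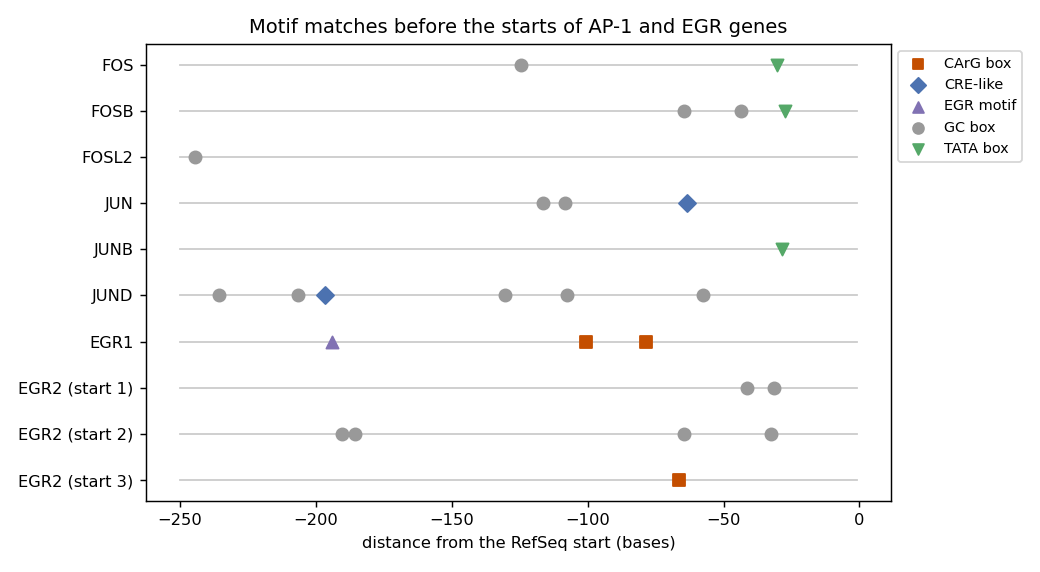
Matches to 5 motifs in the 250 bases before each RefSeq start (x axis, bases from the start) for the 8 genes with a promoter sequence, 1 line per start (EGR2 has 3). CArG boxes appear in EGR1 and in EGR2 start 3 only, and the CRE-like TGACNTCA in JUN and JUND.

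In the FOS and FOSL2 lines capitals mark ATTTA, the core of AU-rich elements that shorten the life of an mRNA, in the 30 bases with most copies. FOS held 5 copies of ATTTA in its 806-base 3′ UTR and FOSL2 held 9 in 4864 bases. Both also held 1 copy of the longer TTATTTATT, which overlaps ATTTA and which 8.0% of 13148 tested protein-coding genes hold. At least 1 ATTTA is in 67.1% of those genes. The other 8 genes described here held 1 to 3 copies of ATTTA and none of TTATTTATT. Per kb of 3′ UTR, ATTTA ran from 0.81 in EGR1 to 6.203 in FOS, against a median of 1.487 over the tested protein-coding genes. JUN, JUNB and JUND have no intron, EGR1, EGR2 and EGR3 have 2 exons, and the FOS family genes have 4 in the transcripts used.

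Total counts per library ran from 12688093 to 16357992. The unit of level is CPM, in which a gene's counts are divided by the TMM-scaled total over tested genes. The 15953 tested genes averaged 10 counts or more across the libraries. Unless another test is named, an adjusted p comes from edgeR's quasi-likelihood fit, adjusted by Benjamini-Hochberg over these genes. Of the 8 markers of HEK-293T, 7 were above 1 CPM and INA was at 0 counts in all DMSO libraries. Summed leukocyte markers stayed at 2.94 CPM or less and endothelial and hepatocyte markers below 0.70 CPM, with CD3E and TTR at 0 counts in every library. The fibroblast sum was 31.6 to 36.2 CPM in DMSO and 52.8 to 60.2 CPM after nitidine chloride, nearly all from COL1A1, and its part in the results was not tested. In bulk RNA, fewer cells expressing a gene and less RNA per cell cannot be told apart.

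All 10 genes passed the filter on low counts. FOSB, FOSL1, FOSL2, JUND, EGR1, EGR2 and EGR3 rose after nitidine chloride (7 of 10), none fell, and FOS, JUN and JUNB did not pass. Among all tested genes 24.7% rose and 27% fell (51.7% in either direction). The groups did not overlap for 8 of the 10 genes, 7 with nitidine chloride higher and 1 lower, against 60.7% of all tested genes (29.7% higher, 31% lower). The median log2 fold change was 0.90 over the 10 genes and 0.01 over all tested genes. EGR2 passed the filter through the treated group, with a mean of 7.33 counts in DMSO. With no filter on low counts 7 of the 10 genes were higher as well, beside 3915 of 28614 genes in all. Directions are relative to TMM scaling. Scaling by library size alone moved the median of all tested genes to 0.12, and the same 7 genes passed, beside 5140 of all 15953 tested genes that were then higher (3936 with TMM).

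**Figure D2:**
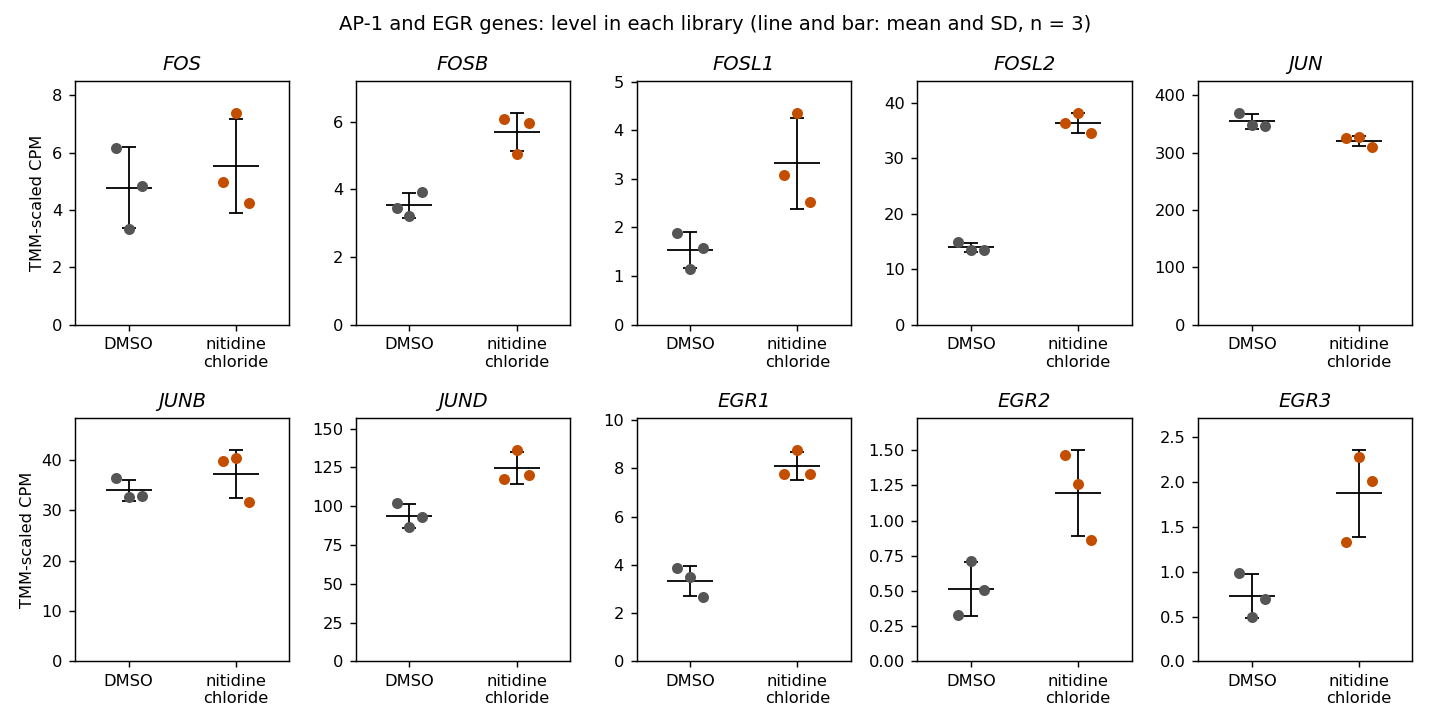
TMM-scaled CPM (y axis, from 0) of each gene in each library, with DMSO in grey, nitidine chloride in orange and the mean and SD of 3 libraries as line and bar. The groups are apart for FOSB, FOSL1, FOSL2, JUND, EGR1, EGR2 and EGR3, with nitidine chloride higher, and for JUN, with nitidine chloride lower, while FOS and JUNB overlap.

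FOSL2, encoding the FOS family member FRA-2, had the smallest adjusted p of the 10 genes. FOSL2 (ENSG00000075426) lies on chromosome 2 from 28392448 to 28417312. The DMSO libraries held 181, 189 and 213 of its counts, against 519, 604 and 480 in the treated ones, or 14.9, 13.4 and 13.5 CPM against 36.3, 38.2 and 34.5 CPM. Every treated library was above every DMSO library. The mean went from 13.9 ± 0.81 to 36.3 ± 1.82 CPM (SD, n = 3), a 2.61-fold rise with a 95% interval from 2.25 to 3.01 (adjusted p = 1.21e-05).

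FOSL1, encoding FRA-1, lies on chromosome 11 from 65892049 to 65900573. It had 23, 16 and 25 counts in the DMSO libraries, against 44, 69 and 35 in the treated ones. The treated libraries were all higher but differed more among themselves. The level rose from 1.54 ± 0.38 to 3.32 ± 0.94 CPM (SD, n = 3), 2.17-fold with an interval from 1.38 to 3.43 (adjusted p = 0.0120). FOSB, whose protein has long and short splice forms, lies on chromosome 19 from 45467995 to 45475179. The DMSO libraries held 42, 45 and 62 of its counts, against 87, 80 and 83 in the treated ones. The groups were apart, and the level rose from 3.53 ± 0.37 to 5.70 ± 0.56 CPM (SD, n = 3), 1.61-fold with an interval from 1.25 to 2.06 (adjusted p = 0.00703). FOSB lies inside the span of ERCC1 on the other strand, but no exonic bases of the genes overlap in GENCODE release 29.

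FOS, the founding member of the family, did not pass. FOS lies on chromosome 14 from 75278774 to 75282230 and had 75, 47 and 76 counts in the DMSO libraries, against 71, 117 and 59 in the treated ones. The groups overlapped, with both the highest and the second-lowest CPM among the treated libraries. Its log2 fold change was 0.22 with an interval from -0.43 to 0.87 (adjusted p = 0.537), so a change of up to 1.83-fold upward lies within the interval. Without nitidine chloride replicate 2, the log2 fold change of FOS was -0.047.

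Among the JUN genes, JUND rose. JUND encodes a subunit that is widely expressed in resting cells and lies on chromosome 19 from 18279760 to 18281622. The DMSO libraries held 1238, 1214 and 1470 of its counts, against 1682, 2161 and 1671 in the treated ones, or 101.7, 86.3 and 93.3 CPM against 117.6, 136.5 and 120.2 CPM. All treated libraries lay above the DMSO libraries. The rise was 1.33-fold with an interval from 1.16 to 1.53 (adjusted p = 0.00537).

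JUN, encoding c-Jun, had by far the most counts of the 10 genes and did not pass. It lies on chromosome 1 from 58780788 to 58784327. The DMSO libraries held 4493, 4897 and 5451 of its counts, against 4650, 5170 and 4317 in the treated ones, or 369.2, 348.2 and 345.9 CPM against 325.0, 326.6 and 310.4 CPM. On this scale every treated library was below every DMSO library, as for 31% of all tested genes, with a log2 fold change of -0.14 and an interval from -0.28 to -0.01 (adjusted p = 0.0660). Scaled by library size alone, the log2 fold change of JUN was -0.04. In the authors' FPKM the groups overlapped, at 100.03, 94.99 and 94.13 with DMSO, against 96.0, 93.5 and 91.9 with nitidine chloride.

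JUNB, which often opposes c-Jun in proliferation, lies on chromosome 19 from 12791496 to 12793315. It had 442, 460 and 517 counts in the DMSO libraries, against 568, 638 and 441 in the treated ones. The groups overlapped because replicate 3 of nitidine chloride was below all the DMSO libraries in CPM. The log2 fold change was 0.13 with an interval from -0.13 to 0.39 (adjusted p = 0.346). HOOK2 on the opposite strand shares 259 exonic bases with JUNB (14.2% of its exonic length) and had 244, 334 and 355 counts in the DMSO libraries, against 462, 682 and 569 in the treated ones. The strand setting of the counting is not given in the sources used here, so the level of JUNB is uncertain.

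All 3 EGR genes rose, each from a low level. EGR1, a zinc finger factor and the most abundant of the 3, lies on chromosome 5 from 138465490 to 138469315. The DMSO libraries held 47, 49 and 42 of its counts, against 111, 139 and 108 in the treated ones, or 3.86, 3.48 and 2.67 CPM against 7.76, 8.78 and 7.77 CPM. The groups were far apart. The rise was 2.44-fold with an interval from 1.86 to 3.19 (adjusted p = 4.53e-04).

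EGR3 lies on chromosome 8 from 22687659 to 22693302 and had 12, 7 and 11 counts in the DMSO libraries, against 19, 36 and 28 in the treated ones. EGR2, known for its role in myelinating cells, spans chromosome 10 from 62811996 to 62919900 in the table and had 4, 10 and 8 counts in the DMSO libraries, against 21, 20 and 12 in the treated ones. In both genes the treated libraries were all higher. EGR3 rose 2.59-fold with an interval from 1.51 to 4.46 (adjusted p = 0.0102). EGR2 rose 2.28-fold with an interval from 1.26 to 4.11 (adjusted p = 0.0276), on the fewest counts of the 10 genes. The call of EGR2 was lost with DESeq2 (adjusted p = 0.108) and in edgeR without DMSO replicate 1 (0.0785), DMSO replicate 3 (0.0767), nitidine chloride replicate 1 (0.0833) or nitidine chloride replicate 2 (0.0680).

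**Figure D3:**
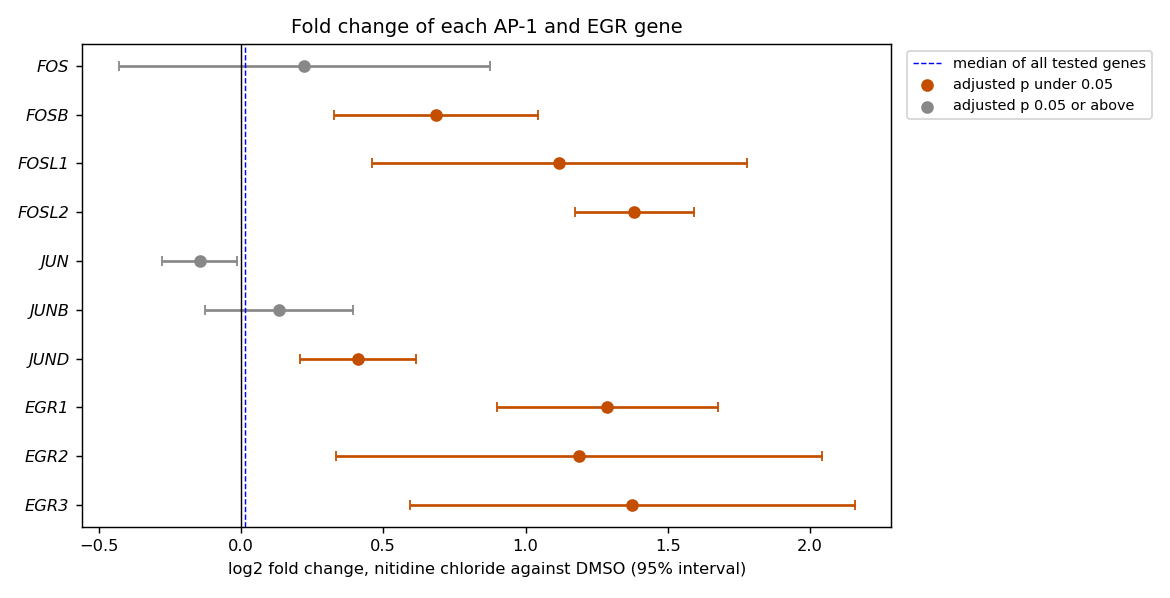
Log2 fold change of each gene, nitidine chloride against DMSO (x axis), as a point with its 95% interval from edgeR's quasi-likelihood fit; the dashed line is the median of all tested genes, 0.01. The interval is narrow for FOSL2 and wide for EGR2 and EGR3, and FOS, JUN and JUNB (grey) did not pass.

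Levels were compared between genes as CPM per kb of exonic length, from the GENCODE exons of each gene. The length behind the authors' FPKM was not used for this order because it exceeded the genomic span for FOS (9099 bases against 3.457 kb), FOSB, EGR3 and JUND. This also lowers their shares in FPKM below. That length exceeded the exonic length of FOSL1, FOSL2 and EGR2 as well. With DMSO the family shares in FPKM were 13.9% for FOSL1 and 6.40% for EGR2, against 16.6% and 10.6% per exonic kb. The FOSL2 share was higher in FPKM, at 51.6% against 40.4%. In DMSO the order of these per-kb levels was JUN at 100.1 ± 3.63, JUND at 50.3 ± 4.14, JUNB at 18.7 ± 1.13, FOSL2 at 1.95 ± 0.11, FOS at 1.48 ± 0.44, EGR1 at 1.06 ± 0.20, FOSL1 at 0.82 ± 0.20, FOSB at 0.64 ± 0.07, EGR3 at 0.15 ± 0.05 and EGR2 at 0.14 ± 0.05 (SD, n = 3). The 3 JUN genes differed from each other and from all the rest beyond the spread of the libraries. From FOSL2 down to FOSB each neighbour overlapped the next, and so did EGR3 and EGR2. FOSB and EGR3 did not overlap.

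After nitidine chloride the per-kb levels were 90.6 ± 2.52 for JUN, 67.0 ± 5.52 for JUND, 20.5 ± 2.63 for JUNB, 5.07 ± 0.25 for FOSL2, 2.58 ± 0.19 for EGR1, 1.76 ± 0.50 for FOSL1, 1.71 ± 0.51 for FOS and 1.03 ± 0.10 for FOSB. EGR3 followed at 0.39 ± 0.10 and EGR2 at 0.32 ± 0.08 (SD, n = 3). FOSL2 and EGR1 now each stood apart from their neighbours, while FOSL1 and FOS, and EGR3 and EGR2, overlapped. FOS stood at the fifth place in DMSO and the seventh after nitidine chloride, where it overlapped FOSL1.

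The make-up of the FOS and JUN families differed between the groups in the shares of FOSL2 and JUND. Shares restate the levels of the same genes within each family and add no separate evidence. Of the summed FPKM of the FOS family, FOSL2 took 48.0%, 57.2% and 49.4% in the DMSO libraries and 65.1%, 60.2% and 67.1% in the treated ones. FOS itself took 28.1%, 20.1% and 24.9% of that sum with DMSO, against 12.6%, 16.5% and 11.6% with nitidine chloride. Neither gene's groups overlapped. In the JUN family, JUND took 25.0 ± 0.985% of the FPKM with DMSO and 32.2 ± 1.59% with nitidine chloride (SD, n = 3), and JUN took 63.2 ± 1.03% and 55.3 ± 1.52%. In the EGR family EGR1 held 87.0 ± 1.95% and 87.2 ± 0.576%, and the groups overlapped. A two-sided exact permutation test gave p = 0.1 for the shares of FOSL2, FOS, JUN and JUND, the smallest value that 3 against 3 libraries allow, and p = 0.9 for EGR1.

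**Figure D4:**
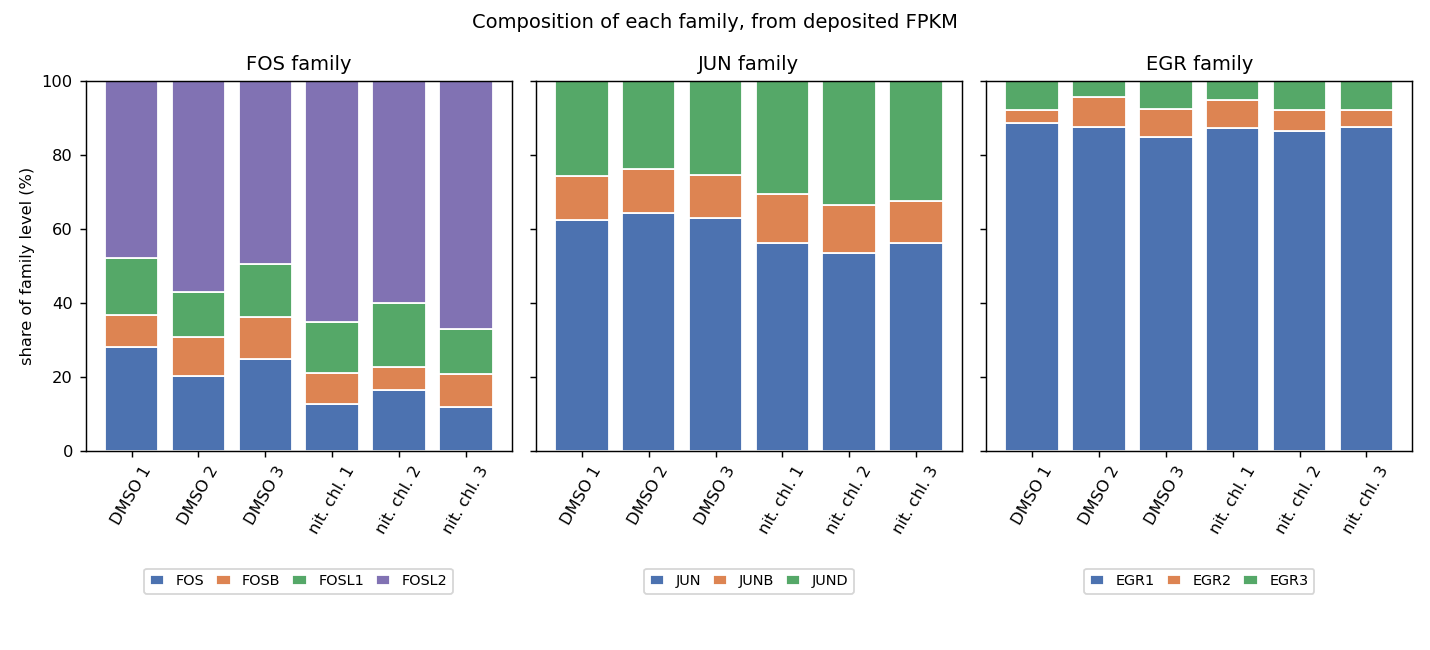
Share of each gene in the summed FPKM of its family (y axis, percent), 1 bar per library. The FOSL2 part is larger in all 3 nitidine chloride libraries than in all 3 DMSO libraries, and so is the JUND part, while the EGR1 parts overlap.

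With levels per kb of exonic length in place of FPKM, a choice made after seeing the data, the FOSL2 share was 40.4 ± 4.79% and 53.3 ± 3.73% and the JUND share 29.7 ± 1.10% and 37.6 ± 1.71% (SD, n = 3). The EGR1 share was then 78.3 ± 2.91% with DMSO and 78.5 ± 0.864% with nitidine chloride (SD, n = 3), and the groups overlapped. Ratios of 2 levels per exonic kb within a library do not depend on library scaling. JUN over JUND was 1.91, 2.12 and 1.95 with DMSO, against 1.45, 1.26 and 1.36 with nitidine chloride. FOSL2 over FOS was 1.09, 1.82 and 1.27 with DMSO, against 3.31, 2.34 and 3.68 with nitidine chloride. EGR1 over FOS was 0.65, 1.08 and 0.57 with DMSO, against 1.61, 1.23 and 1.89 with nitidine chloride. All 3 ratios separated the groups, and the same exact permutation test gave p = 0.1 for each, and 0.1 after adjustment over the 3. For JUN over JUND this had to follow, since JUN was lower and JUND higher in every treated library. The other 2 ratios set genes that rose over FOS, which did not pass. The ratios were not planned and add no separate evidence. Summed over the family in TMM-scaled CPM, the FOS genes had 23.8 ± 2.63 with DMSO and 50.9 ± 3.88 with nitidine chloride, and the EGR genes 4.58 ± 0.66 and 11.2 ± 0.99 (SD, n = 3). The summed CPM of the JUN genes was 482.2 ± 21.9 with DMSO and 482.6 ± 20.6 with nitidine chloride (SD, n = 3), and the groups overlapped. In FPKM the JUN sum was 152.5 ± 6.93 and 169.6 ± 5.64 (SD, n = 3), and the groups did not overlap. FPKM is scaled by library size without TMM, and also by gene length.

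Fold change differed with genomic span in these libraries. Spans are therefore given for the 10 genes and for the genes named as lower in the lists below. FOS, JUN, JUNB, JUND and EGR1 span under 5 kb, a class of 2718 tested genes with a median log2 fold change of 0.09. FOSB, FOSL1 and EGR3 span 5 to 10 kb, where 1644 genes had a median of 0.31. FOSL2 spans 24.9 kb, and genes of 20 to 50 kb had a median of 0.13. EGR2 is listed at 107.9 kb, and the 1738 genes of 100 to 200 kb had a median of -0.84. That span, from 62811996 to 62919900 on the minus strand, reaches far beyond the RefSeq starts of EGR2. Those starts lie at 62819167, 62818775 and 62816366, so this class may not describe EGR2. Which of its transcripts were expressed was not tested. Of the tested genes, 23.4% rose in the class under 5 kb and 43.98% in that of 5 to 10 kb. The share that rose was 30.8% at 20 to 50 kb and 2.65% at 100 to 200 kb, against 24.7% of all tested genes. Whether span had a part in the rises among the 10 genes or in the lists below was not tested. FOSL2, with a log2 fold change of 1.38, was above 98.4% of all tested genes, EGR3 above 98.4%, EGR1 above 98.0%, EGR2 above 97.4%, FOSL1 above 97.0%, FOSB above 89.35% and JUND above 77.3%. FOS was above 65.2%, JUNB above 58.7% and JUN above 39.7%.

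The 3 tested genes whose log2 CPM was most like that of JUN over the 6 libraries were MREG (Pearson r = 0.998), MARCHF5 (r = 0.996) and RPL10A (r = 0.992), as a description from so few libraries. Each was lower on average after nitidine chloride, with log2 fold changes of -0.41, -0.20 and -0.16. The choice by likeness to JUN, itself lower in every treated library, largely fixes that direction. RPL10A did not pass (adjusted p = 0.0592).

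The lists in the plot of pathway genes held 108 other genes of the pathways, of which 97 were tested. The shares to set beside each list count are those of all tested genes, 24.7% higher and 27% lower. Proteins that can pair with FOS or JUN went both ways, with 5 of 12 tested genes higher, 2 lower and 5 not passing (median log2 fold change 0.23, against 0.01 for all tested genes). JDP2, which binds JUN and represses AP-1, rose from 7.93 ± 2.60 to 19.6 ± 1.19 CPM, and BATF3, which pairs with JUN, rose from 12.4 ± 2.02 to 22.5 ± 3.33 CPM (SD, n = 3). ATF2 (96.1 kb), a partner of JUN, fell from 54.7 ± 3.49 to 25.2 ± 1.95 CPM and ATF7 (118.6 kb), its relative, from 49.6 ± 2.32 to 29.9 ± 3.91 CPM (SD, n = 3). Of the EGR relatives and corepressors, WT1, a zinc finger factor with a related DNA element, rose with a log2 fold change of 0.67 ± 0.11 (SE). NAB1, an EGR corepressor (46.0 kb), fell by 0.40 ± 0.09 on that scale. The other corepressor, NAB2, did not pass at 0.47 ± 0.27 (SE), with 253, 298 and 595 counts in the DMSO libraries, against 603, 433 and 579 in the treated ones.

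Of 26 kinases and promoter-bound factors upstream of these genes, 3 rose, 12 fell and 11 did not pass, with a median log2 fold change of -0.26. Over all tested genes 24.7% rose and 27% fell. ELK4, an ETS partner of SRF, rose from 91.2 ± 2.11 to 166.1 ± 20.3 CPM and MAP2K7, a kinase of the JNK branch, from 32.4 ± 6.97 to 49.9 ± 0.73 CPM (SD, n = 3). The third gene that rose was SRF, named after its value was seen, with a log2 fold change of 0.53 ± 0.07 (SE). MRTFB, an SRF coactivator (195.5 kb), fell by 2.71 ± 0.32 (SE) on the log2 scale, its counts with DMSO being 357, 985 and 1034. RPS6KA5, the kinase MSK1 (212.8 kb), fell from 29.5 ± 1.69 to 7.64 ± 0.53 CPM (SD, n = 3). The 12 genes that fell spanned 59.0 to 226.4 kb, and the 3 that rose 10.2 to 34.4 kb. Whether span had a part in this difference was not tested.

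Among 15 genes of AU-rich element mRNA decay, 4 rose, 5 fell and 6 did not pass (median -0.14). These counts are close to the shares of all tested genes, 24.7% higher and 27% lower. ZFP36, encoding the decay factor tristetraprolin, rose with a log2 fold change of 0.54 ± 0.15 and its relative ZFP36L1 with 0.46 ± 0.10 (SE). The call of ZFP36 was lost with DESeq2 (adjusted p = 0.101). PARN, a deadenylase (197.0 kb), fell by 1.79 ± 0.08 on the log2 scale and PAN3, a subunit of another deadenylase (156.8 kb), by 1.43 ± 0.09 (SE). Of 4 components of ubiquitin ligases for JUN, 3 fell, none rose and 1 did not pass. COP1 (262.7 kb) fell from 49.8 ± 3.66 to 9.34 ± 1.36 CPM and ITCH (148.2 kb) from 126.5 ± 6.44 to 43.2 ± 11.2 CPM (SD, n = 3). In the class of 100 to 200 kb, which holds ITCH, 75.0% of tested genes fell, and in the class of 200 kb or more, which holds COP1, 89.3% fell.

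**Figure D5:**
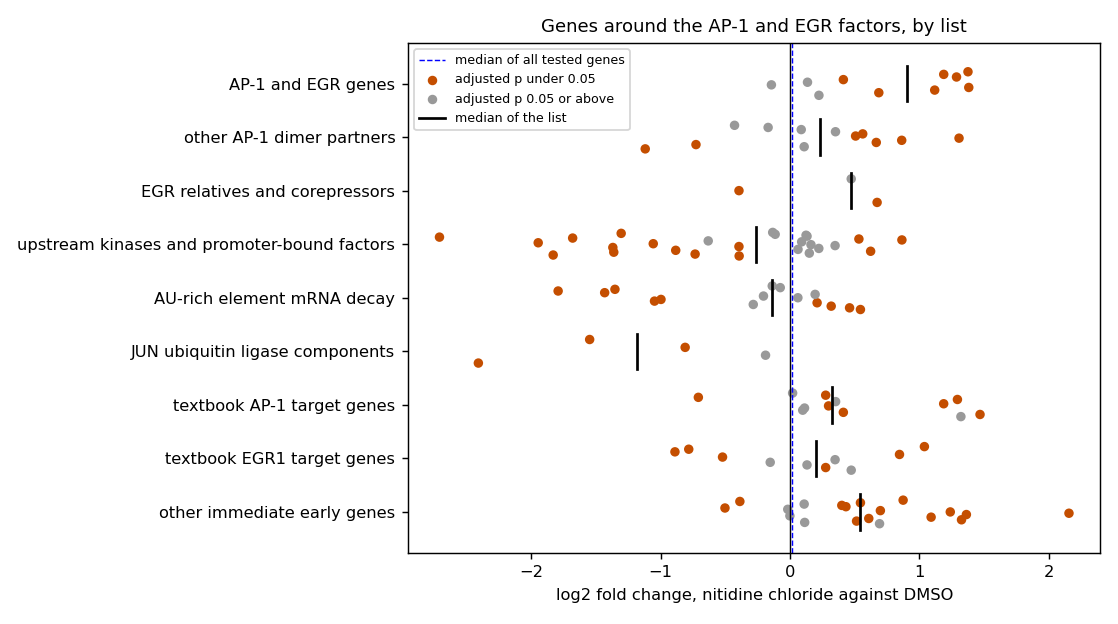
Log2 fold change (x axis) of the 10 AP-1 and EGR genes and of the tested genes of 8 lists around them, 1 point per gene, orange where the adjusted p was under 0.05, with a black line at the median of each list. The upstream and ubiquitin ligase lists lie mostly left of the dashed median of all tested genes, and other immediate early genes mostly right of it.

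Textbook target genes of AP-1 had 12 of 20 genes tested, since 8 had too few counts. Of those tested, 6 rose, 1 fell and 5 did not pass (median 0.32), beside 24.7% higher and 27% lower over all tested genes. PLAU, encoding urokinase, rose from 1.84 ± 0.37 to 5.10 ± 0.31 CPM (SD, n = 3). SPHK1, sphingosine kinase, rose with a log2 fold change of 1.29 ± 0.11 (SE). HMOX1, heme oxygenase (13.9 kb), fell from 73.4 ± 2.05 to 44.8 ± 6.60 CPM (SD, n = 3). Without DMSO replicate 3, 4 genes of this list passed in place of 7. Of 10 tested EGR1 targets, 3 rose, 3 fell and 4 did not pass (median 0.20), close to those shares of all tested genes. CDK5R1, the p35 activator of CDK5, rose from 21.0 ± 1.24 to 43.2 ± 5.81 CPM and VEGFA, the angiogenic factor, from 78.9 ± 2.67 to 141.8 ± 21.0 CPM (SD, n = 3).

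Of 19 other immediate early genes, all tested, 12 rose, 2 fell and 5 did not pass (median 0.54). The shares over all tested genes were 24.7% higher and 27% lower. ATF3 and ZFP36 are also on other lists. TGFB1, which rose, is counted in both the AP-1 and the EGR1 target lists. NAB2 is on the corepressor list and the EGR1 target list. CCN2 and CCN1, encoding matricellular proteins, had the highest fold changes. CCN2 had 18, 30 and 19 counts in the DMSO libraries, against 99, 117 and 100 in the treated ones, and CCN1 had 126, 160 and 161 against 380, 460 and 370. Their log2 fold changes were 2.16 ± 0.21 and 1.36 ± 0.10 (SE). KLF10, a zinc finger factor (7.1 kb), fell by 0.50 ± 0.08 on that scale (SE). DUSP1, a MAP kinase phosphatase (3.1 kb), fell by 0.39 ± 0.08 on the same scale (SE). All 3 NR4A nuclear receptor genes were among the 12 that rose, named after their values were seen, with log2 fold changes of 1.33 for NR4A1, 0.61 for NR4A2 and 1.09 for NR4A3.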

How the data were processed

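RNA of 6 HEK-293T libraries was sequenced. The authors deposited raw read counts per gene and FPKM, which scales counts by gene length and depth, per the file headers. Per the submitters' processing notes, HISAT2 2.0.4 and StringTie 1.3.0 were used, for steps these notes leave unnamed. How reads were counted, with which strand setting and on which build, is not given in the sources used here; the table positions of all 10 genes were identical to GENCODE release 29 (GRCh38). Groups came from the sample titles.

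Genes averaging 10 counts or more were tested with edgeR 4.0.16 (R 4.3.3, TMM, quasi-likelihood test, no covariate, adjusted p threshold 0.05). The test was checked on simulated data in which far fewer genes changed than were called here. That check does not cover changes as broad as these. Intervals are 95% intervals from that fit, and SE is the log2 fold change divided by the square root of F. Exonic lengths are unions of GENCODE exons. For 3′ UTRs the basic transcript with the longest coding sequence was used. Replicates of a group differed by more than sampling noise (chi-square per gene 8.53 to 15.8). Named genes were the 10 members, the 2 highest and 2 lowest called genes of each list, and the 3 genes most like JUN. Some genes that this rule names are not reported here. Alternatives used DESeq2 1.42.0 and limma 3.58.1. Plots used matplotlib 3.10.9. Members, lists and rules were chosen with earlier results of these data known.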

Additional observations from a re-analysis of the deposited data

How the results depend on the processing

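Of the 10 genes, FOSL2 and EGR1 kept their direction and call under all 17 alternatives, with log2 fold changes of 0.94 to 1.49 and 0.86 to 1.40, the lowest with a pseudocount of 1 on FPKM. The 7 calls among the 10 genes were 4 at a mean count of at least 50, where only 7 of them were tested (all genes: 3757 higher and 3768 lower of 12864), 4 at an adjusted p threshold of 0.01 (2616 higher and 3377 lower of 15953) and 2 in a test against a 1.5-fold change. The latter left 2833 of 8250 calls over all genes, 750 higher and 2083 lower, and 30 of 61 in the lists. Leaving out single libraries gave 6 or 7 calls, beside 7074 to 7813 of 15953 over all genes, with 3241 to 3669 higher. FOSB, FOSL1, JUND and EGR3 lost their call only against a 1.5-fold change or, for FOSL1 and EGR3, at a threshold of 0.01. FOS lay between -0.047 (without nitidine chloride replicate 2) and 0.44 (without DMSO replicate 1). The difference in the EGR1 share of the family, 0.13 percentage points in FPKM, had leave-one-out values of -0.94 (without DMSO replicate 3) to 0.98, and was -0.13 without nitidine chloride replicate 3. The cause of these moves was not tested. The share of higher calls over all genes was 47.7% with TMM and 57.9% with scaling by library size alone. The shares and ratios per exonic kb and the family sums in CPM were chosen after seeing the data.

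The replicate block left 6 of the 10 genes called, all but EGR2 (adjusted p = 0.0539), and 7555 over all genes. Same-numbered libraries had correlations of deviations from their group means of -0.066 to 0.039, so the numbers were not treated as pairs. With EGR2 at 4 to 21 counts per library and EGR3 at 7 to 36, depth limits the precision of both.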
